A study of Homo sapiens with 9 samples.

Results

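The genes of Mediator, RNA polymerase II (Pol II) and the machinery of pausing and elongation were followed in COR-L279 cells, an established small cell lung cancer line of the NEUROD1 (SCLC-N) subtype with a WT genotype, after 24 h with JQ1. JQ1 is an inhibitor that occupies the acetyl-lysine pocket of BET bromodomains and so frees BET proteins from chromatin. The members were chosen by gene symbol, with earlier results of these data known. They were Mediator (MED) subunits, POLR2A to POLR2L, SUPT, INTS, NELF, ELL, EAF and AFF genes, the transcription kinases and their cyclins, MLLT1, MLLT3 and the PAF1 complex. The rule matched 91 of 17518 genes in the table of normalized counts, of which 88 code for proteins of 14 complexes or modules and 3 are an INTS4 copy (INTS4L1) and antisense RNAs (MED14-AS1, INTS6-AS1). Total RNA was sequenced in 3 biological replicates each of DMSO vehicle, 0.5 µM JQ1 and 1.5 µM JQ1, 9 libraries in all. Every group was the same unmodified line, treated in culture for the same time.

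Pol II starts a gene with the general transcription factors and Mediator, a large complex that passes signals from enhancer-bound factors to the polymerase. Soon after the start the polymerase pauses, held by the factors DSIF and NELF, until the kinase P-TEFb, often as part of the super elongation complex, releases it.

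Promoters of 4 members that moved at least 2-fold at 1.5 µM are shown first. INTS8 (log2 1.07), which rose more than MLLT3 (log2 1.05), and INTS6-AS1 also moved that far but are not shown. Each sequence shown is the 250 bases before an annotated start, 5′ to 3′ on the gene's strand. The source is RefSeq on build GRCh38.p14, which is not the build of the deposited files (hg19). Capitals mark matches on either strand. The motif called a GC box has the letters GGGCGG and may overlap its neighbour, as it does once in MLLT3. The CCAAT box is named by its own letters. The last motif searched, called an E-box, has the letters CANNTG, and in MLLT3 it lies directly beside the CCAAT box. The order is POLR2A (chr17:7484116-7484365, plus strand), MLLT3 (chr9:20622500-20622749, minus strand), AFF3 at its start 1 (chr2:100142591-100142840, minus strand) and start 2 (chr2:100105584-100105833, minus strand), and MED24 (chr17:40054409-40054658, minus strand).
POLR2A: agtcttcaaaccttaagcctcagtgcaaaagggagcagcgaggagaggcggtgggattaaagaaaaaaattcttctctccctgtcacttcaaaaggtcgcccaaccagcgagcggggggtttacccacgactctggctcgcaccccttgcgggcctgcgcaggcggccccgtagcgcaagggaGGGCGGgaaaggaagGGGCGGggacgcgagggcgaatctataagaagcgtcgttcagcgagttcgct
MLLT3: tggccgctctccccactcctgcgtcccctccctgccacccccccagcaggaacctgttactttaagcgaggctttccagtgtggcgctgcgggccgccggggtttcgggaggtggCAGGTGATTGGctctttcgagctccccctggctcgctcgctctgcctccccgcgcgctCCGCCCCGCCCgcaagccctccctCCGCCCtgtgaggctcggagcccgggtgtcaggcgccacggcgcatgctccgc
AFF3 start 1: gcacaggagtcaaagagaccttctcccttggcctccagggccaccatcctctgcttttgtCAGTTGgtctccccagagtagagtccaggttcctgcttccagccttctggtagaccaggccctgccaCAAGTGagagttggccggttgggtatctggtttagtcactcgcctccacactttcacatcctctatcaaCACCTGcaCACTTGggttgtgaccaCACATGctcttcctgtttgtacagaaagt
AFF3 start 2: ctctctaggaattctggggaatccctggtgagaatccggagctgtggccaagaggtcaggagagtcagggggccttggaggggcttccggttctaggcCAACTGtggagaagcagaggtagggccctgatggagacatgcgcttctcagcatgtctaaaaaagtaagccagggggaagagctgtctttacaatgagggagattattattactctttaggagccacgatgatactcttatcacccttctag
MED24: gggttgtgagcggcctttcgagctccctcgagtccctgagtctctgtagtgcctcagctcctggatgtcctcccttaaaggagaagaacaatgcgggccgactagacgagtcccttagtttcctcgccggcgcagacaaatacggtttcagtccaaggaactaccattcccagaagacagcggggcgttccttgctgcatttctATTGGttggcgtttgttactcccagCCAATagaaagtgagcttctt
POLR2A and MLLT3, which rose, hold 2 and 3 GC boxes in these windows, and MLLT3 also holds 1 CCAAT box and 1 E-box. AFF3 and MED24, which fell, hold no GC box. The AFF3 windows have 5 and 1 E-boxes and the MED24 window has 2 CCAAT boxes. Windows of the same length held a GC box in 65.5% of 84 member promoters and in 42.6% of 35116 promoters in the RefSeq table, a CCAAT box in 26.2% and 32.0%, and an E-box in 47.6% and 61.8%. Promoters were matched for 71 of the 91 members. A match is a description of letters, and no binding was measured here. Motif shares of all risen and all fallen members were not compared.

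Reads in genes numbered 60721187 to 88482001 per library. The 5 SCLC-N and neuroendocrine markers (NEUROD1, INSM1, CHGA, SYP, NCAM1) summed to 1319.9 to 1341 FPKM (fragments scaled by gene length and library depth) in DMSO, 1294 to 1301 at 0.5 µM and 1269 to 1296 at 1.5 µM. Fibroblast markers summed to 15.8 to 16.8 FPKM in DMSO, 5.41 to 13.8 at 0.5 µM and 5.07 to 11.8 at 1.5 µM, with DCN at 0 in every DMSO library. COL1A2 alone had 4.46 to 6.04 FPKM under JQ1, against 14.7 to 15.7 FPKM in DMSO. Endothelial markers stayed at or under 0.07 FPKM, with VWF at 0 throughout, and immune markers at or under 0.47 FPKM. The part of these markers in the results was not tested. Some libraries stood apart. In 0.5 µM replicate 2 the median member lay 0.11 log2 units from the mean of its group's other libraries, against 0.022 to 0.079 in the other 8, and it was the highest or lowest of its group for 77 of 91 members. In 0.5 µM replicate 3 and 1.5 µM replicates 1 and 2, H19 (9.74 to 14.2 FPKM), SLC2A3 (2.02 to 2.08) and the fibroblast marker LUM (at least 2.91) were raised together, against at most 0.1, 0.02 and 0.06 FPKM in the other JQ1 libraries. COL3A1 (2.74 to 3.05 FPKM), DCN (0.40 to 0.41) and YAP1 (0.48 to 0.59) were higher there too than in the other 6 libraries. H19 was also at 6.8 FPKM in DMSO replicate 3, against 0.55 and 0.52 in the other DMSO libraries, where LUM had 0.29 to 0.51 over the group. The labels name no batch that these libraries share. Values in bulk RNA cannot tell fewer cells of a kind from less RNA per cell, and with no spike-in each fold change is set against the average gene.

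JQ1 changed most of these genes, about as often as it changed genes in general, and their median absolute change was smaller. At 0.5 µM 59 of 91 members passed the test (limma, adjusted p under 0.05), 36 higher and 23 lower, against 70.0% of all 17514 genes tested, and 35.3% of all genes were higher and 34.7% lower. At 1.5 µM 63 passed, 35 higher and 28 lower, against 73.1% of all genes, 36.9% higher and 36.2% lower. As shares of the members these are 64.8% and 69.2%, near the background. The size differed more: the median absolute log2 fold change of members was 0.21 at 0.5 µM and 0.24 at 1.5 µM, against 0.38 and 0.43 over all genes. All genes here include low ones (at least 10 normalized counts in at least 3 libraries), whereas the lowest coding member, EAF2, averaged 243. No background of like level was taken, so the part of level in this size difference was not tested. Signed medians were 0.065 and 0.068 for members and -0.010 and -0.0030 for all genes.

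Few members moved 2-fold. At 1.5 µM POLR2A, INTS8, MLLT3 and INTS6-AS1 rose at least 2-fold, 4 of 91 members, a lower share than the 7.05% of all genes. AFF3 and MED24 fell at least 2-fold, 2 of 91 members, a lower share than the 11.8% of all genes. At 0.5 µM only INTS6-AS1 rose and only AFF3 fell by that much among the 91, where 4.82% and 10.1% of all genes did. JQ1 and DMSO libraries were fully separate for 57 of the 91 members at 0.5 µM, a lower share than the 72.6% of all genes. At 1.5 µM they were separate for 76 of the 91, near the 81.7% of all genes. Members separate there without passing included POLR2B, POLR2D, POLR2E, MED4, MED18, MED21, MED30, CCNC, CCNH, MNAT1, PAF1, SUPT5H and SUPT16H. All 91 members passed the filter on low values, so none is missing from these counts. The comparisons with DMSO share the same 3 DMSO libraries. Under every alternative tried, 43 of the 59 and 46 of the 63 calls were kept. Without 0.5 µM replicate 2 all 63 calls at 1.5 µM were kept, and some members given below as not passing at that dose passed. Only members called in a comparison or set by role were followed by name under the alternatives. The counts without that library were 64 (35 higher, 29 lower) and 78 (46 higher, 32 lower). Without the 3 libraries high in H19 and SLC2A3 they were 53 (33 higher, 20 lower) and 51 (31 higher, 20 lower), and at 1.5 µM CDK7, CDK12, EAF1, EAF2, INTS3, INTS4, INTS6, INTS12, MED10, MED27, MLLT1, SUPT4H1 and SUPT20H were among the calls lost. That fit has 1 library left at 1.5 µM, assumed to vary like the other groups, and all 13 kept their sign, with log2 fold changes of 0.20 for CDK12, -0.34 for CDK7, 0.35 for EAF2, 0.35 for INTS12, 0.29 for SUPT20H and -0.062 for INTS4, against 0.20, -0.29, 0.34, 0.32, 0.26 and -0.089 with all libraries. With FPKM values AFF1, AFF2, CCNK, CDK8, CDK12, ELL3, INTS4, INTS6, MED7, MED17, MNAT1, POLR2G and SUPT20H were among the calls lost at 0.5 µM, and CCNK, CDK7, CDK8, CDK12, ELL3, INTS4, MED17 and SUPT20H at 1.5 µM.

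**Figure D1:**
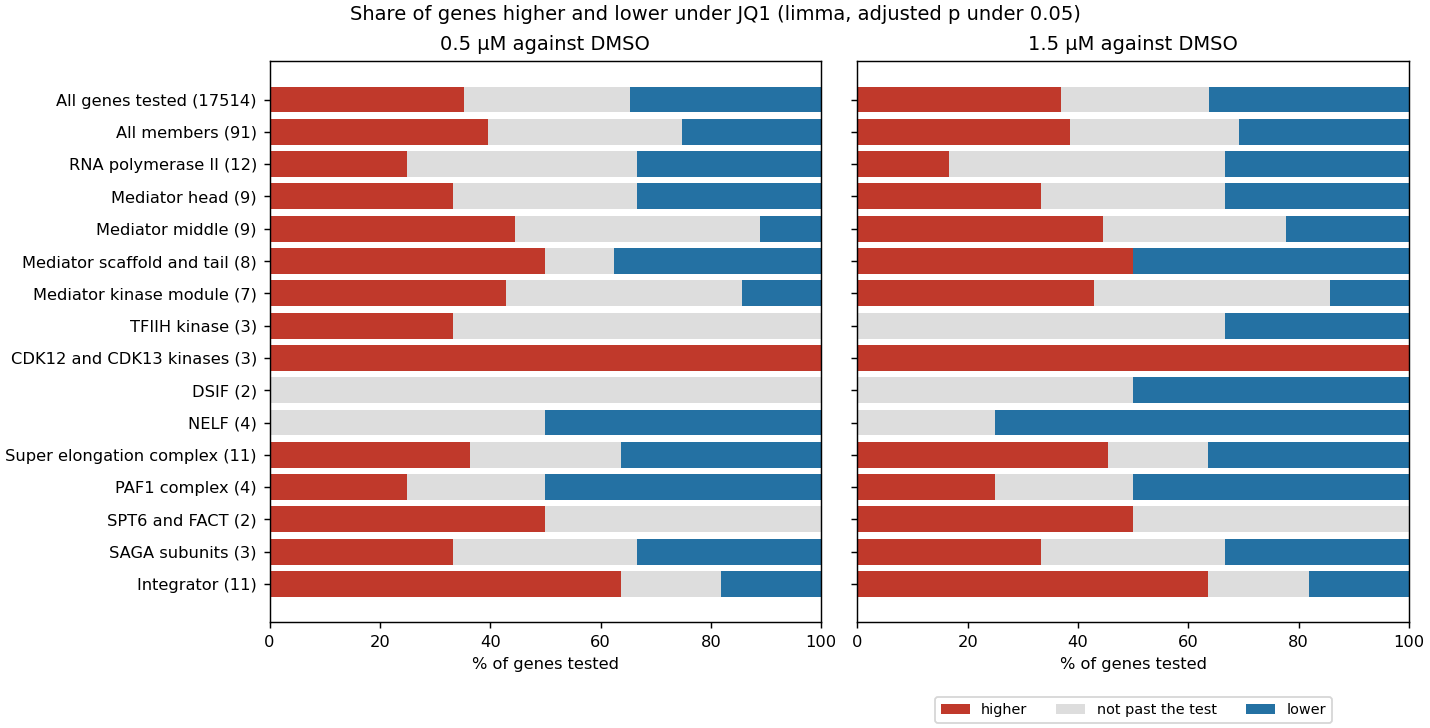
Share of genes higher (red, from the left), lower (blue, from the right) and not past the test (grey) in each complex, for 0.5 µM and 1.5 µM JQ1 against DMSO, with the number of genes in brackets. The bar of the 91 members lies close to that of all 17514 genes, while complexes of few genes differ among themselves.

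**Figure D2:**
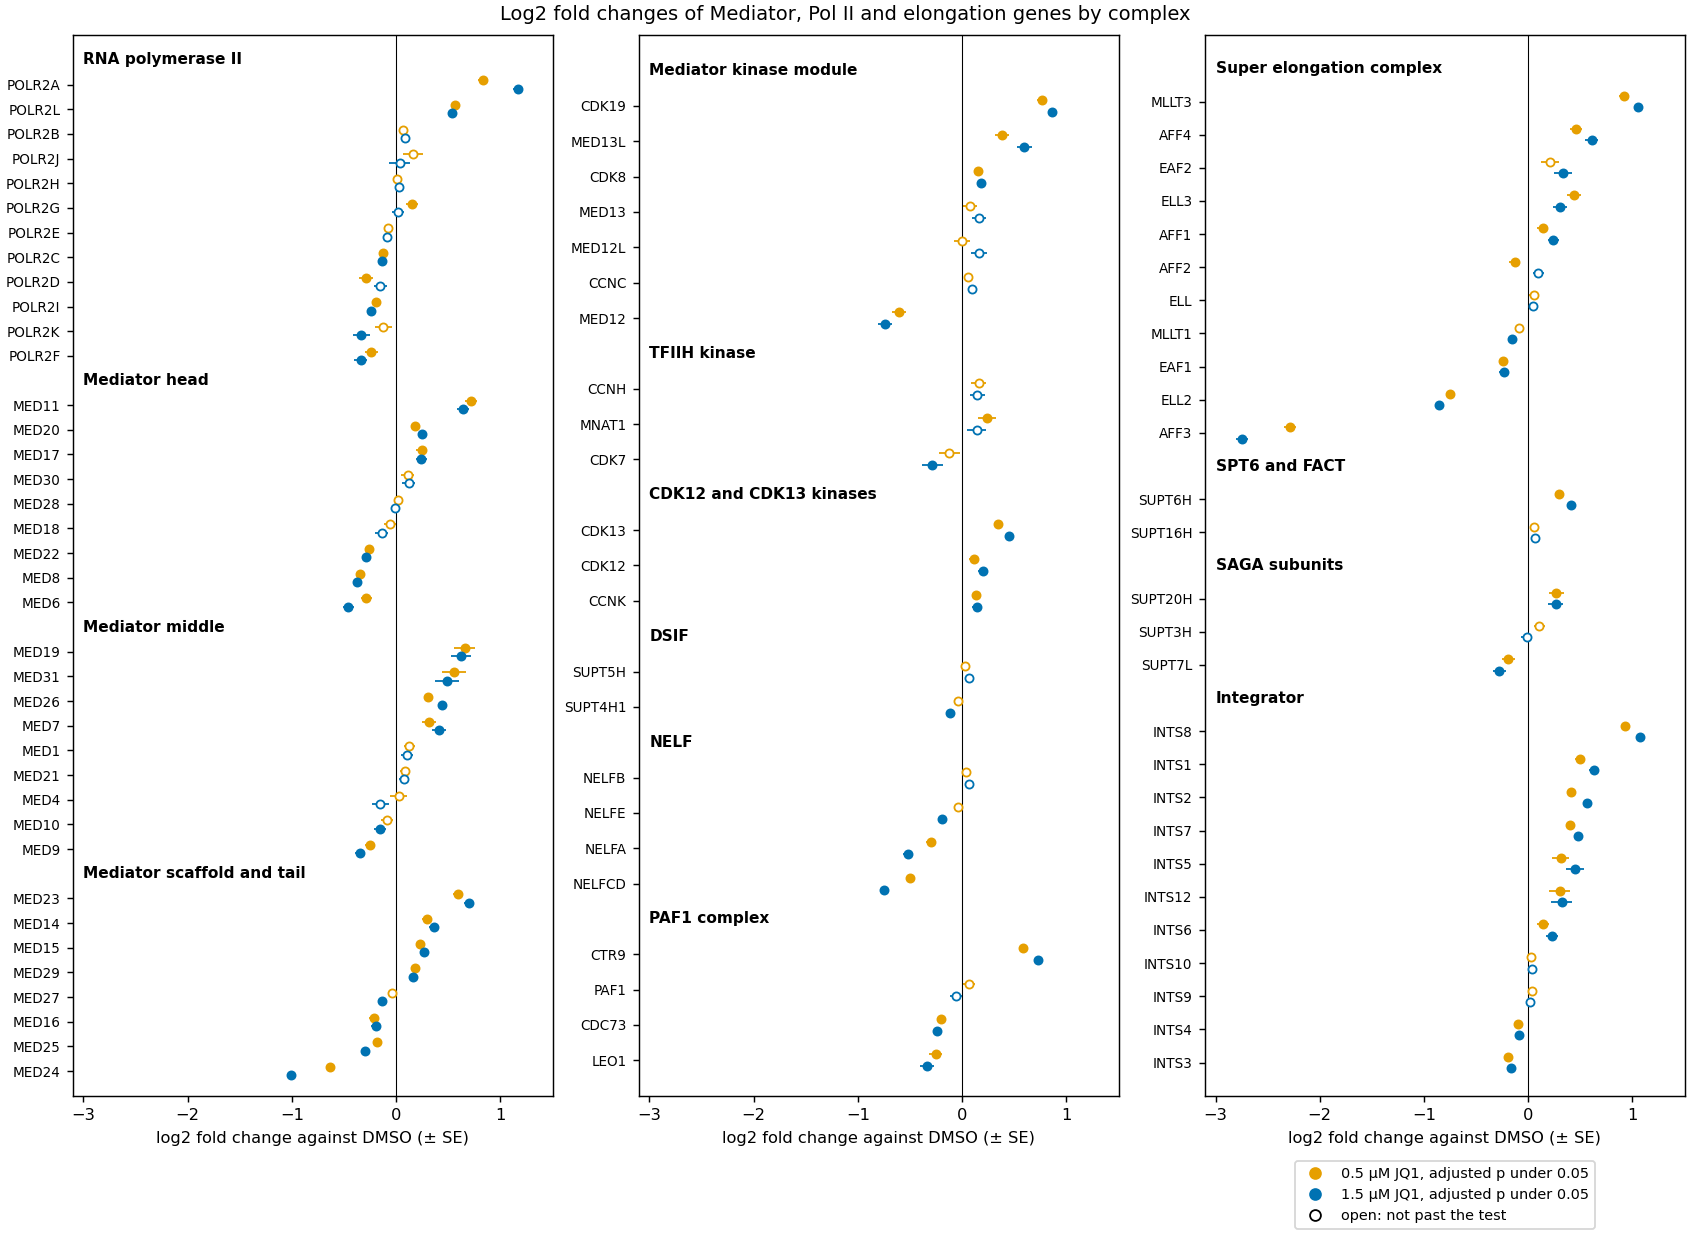
Log2 fold change (± SE) of each of the 88 coding members against DMSO, by complex, at 0.5 µM (orange) and 1.5 µM (blue), with filled points for adjusted p under 0.05. Most points lie within 0.5 log2 units of 0, with AFF3, MED24, ELL2, NELFCD and MED12 farthest to the left and POLR2A, INTS8, MLLT3 and CDK19 farthest to the right.

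In DMSO, the vehicle at the same 24 h, the levels per length differed widely between complexes. The median over the 12 Pol II subunits was 81.7 FPKM, with POLR2D lowest (26.8 FPKM) and POLR2E highest (224 FPKM). The 4 NELF subunits had a median of 66.1 FPKM, SUPT4H1 and SUPT5H of DSIF had 57.7 and 86.3 FPKM, and the super elongation complex had a median of only 13.3 FPKM, with AFF2 lowest at 2.28 FPKM. Within Mediator the kinase module was lowest, with a median of 10.5 FPKM, against 23.2 FPKM in the head, 14.6 FPKM in the middle and 33.8 FPKM in the scaffold and tail.

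Among the Pol II subunits the catalytic subunit moved apart from the rest. POLR2A, which carries the main active site and the C-terminal domain that the transcription kinases phosphorylate, had normalized counts of 18033, 19075 and 20285 in DMSO, 33213, 32787 and 36091 at 0.5 µM and 42204, 43243 and 43297 at 1.5 µM. Each dose group lay wholly above the one before it. POLR2A rose 1.78-fold at 0.5 µM (log2 0.83 ± 0.048, adjusted p = 1.09e-07) and 2.25-fold at 1.5 µM (log2 1.17 ± 0.048, adjusted p = 5.86e-09). The small subunit POLR2L, which Pol I and Pol III share, had normalized counts of 5669, 5366 and 5521 in DMSO, 8156, 8448 and 7919 at 0.5 µM and 8176, 7755 and 8030.5 at 1.5 µM. It rose at both doses (log2 0.57 ± 0.036, adjusted p = 2.29e-07, and 0.53 ± 0.036, adjusted p = 2.51e-07), with no overlap between either JQ1 group and DMSO.

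No other Pol II subunit passed as higher at 1.5 µM, and 4 of the 12 passed as lower. These were POLR2C, POLR2F, POLR2I and POLR2K, with log2 fold changes of -0.13, -0.34, -0.24 and -0.33. The share of all genes was 36.9% higher and 36.2% lower at that dose, and 35.3% and 34.7% at 0.5 µM. At 0.5 µM POLR2C, POLR2D, POLR2F and POLR2I fell, and POLR2G, part of the stalk, passed as higher (log2 0.15 ± 0.056, adjusted p = 0.0327). The POLR2G call was lost without any 1 of the DMSO libraries (log2 0.14 to 0.16, adjusted p 0.0587 to 0.0942; over all alternatives 0.00672 to 0.111). POLR2B, the second large subunit, had log2 fold changes of 0.068 ± 0.035 and 0.081 ± 0.035 and passed at neither dose. All its 1.5 µM libraries lay above those of DMSO. In FPKM the level of POLR2A was 44.1, 75.8 and 94.9 in DMSO, at 0.5 µM and at 1.5 µM, and that of POLR2B was 49.7, 50.5 and 50.9. POLR2E, POLR2H and POLR2J passed at neither dose. POLR2J has near-identical copies that can share its reads.

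Mediator subunits moved both ways, as genes did in general. Of its 33 subunits 14 were higher and 8 lower at 0.5 µM, and 14 were higher and 10 lower at 1.5 µM, against 35.3% higher and 34.7% lower of all genes at 0.5 µM and 36.9% and 36.2% at 1.5 µM, with median log2 fold changes of 0.080 and 0.12. In the head, which touches Pol II, 3 of 9 rose and 3 fell at each dose. MED11 had normalized counts of 577, 519 and 546 in DMSO, 889, 948 and 861 at 0.5 µM and 845, 832 and 881 at 1.5 µM, and rose (log2 0.72 ± 0.059, adjusted p = 1.62e-06, and 0.64 ± 0.059, adjusted p = 2.91e-06). MED6, in contrast, had normalized counts of 2252, 2195 and 2086 in DMSO, 1714, 1925 and 1724 at 0.5 µM and 1575, 1578 and 1598 at 1.5 µM, and fell (log2 -0.29 ± 0.051, adjusted p = 5.43e-04, and -0.46 ± 0.051, adjusted p = 1.34e-05). For both genes each JQ1 group lay wholly on 1 side of DMSO. MED17 and MED20 also rose at both doses and MED8 and MED22 fell at both. With FPKM values MED17 passed at neither dose (log2 0.22, adjusted p = 0.0589, and 0.17, adjusted p = 0.125; over all alternatives 7.85e-05 to 0.0589 and 8.98e-06 to 0.125). MED18, MED28 and MED30 passed at neither.

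In the middle module 4 of 9 subunits rose at each dose, while 1 fell at 0.5 µM and 2 fell at 1.5 µM. Over all genes 35.3% were higher and 34.7% lower at 0.5 µM, and 36.9% and 36.2% at 1.5 µM. MED19 had normalized counts of 902, 957 and 875 in DMSO, 1316, 1733 and 1298 at 0.5 µM and 1380.3, 1386 and 1429 at 1.5 µM. MED31 had 499, 454 and 442 in DMSO, 635, 838 and 597 at 0.5 µM and 689, 632 and 639 at 1.5 µM. In both the 0.5 µM replicate 2 library was the highest of all, and DMSO lay wholly below JQ1. At 1.5 µM the log2 fold changes were 0.62 ± 0.096 for MED19 (adjusted p = 1.70e-04) and 0.49 ± 0.11 for MED31 (adjusted p = 0.00258), and at 0.5 µM they were 0.66 ± 0.096 (adjusted p = 1.27e-04) and 0.55 ± 0.11 (adjusted p = 0.00130). MED26, which links Mediator to elongation factors, had normalized counts of 1147, 1189 and 1137 in DMSO, 1452, 1427 and 1414 at 0.5 µM and 1611, 1596 and 1517 at 1.5 µM, with the dose groups in order and no overlap. Its log2 fold change was 0.31 ± 0.041 at 0.5 µM (adjusted p = 6.70e-05) and 0.44 ± 0.041 at 1.5 µM (adjusted p = 3.09e-06). MED7 also rose at both doses (log2 0.31 and 0.41), a call lost at 0.5 µM with FPKM (0.27, adjusted p = 0.0833; over all alternatives 4.23e-04 to 0.0833), and MED9 fell at both (log2 -0.25 and -0.35). MED10 passed as lower at 1.5 µM only (log2 -0.16 ± 0.058, adjusted p = 0.0321), a call lost without any 1 library of DMSO or of 1.5 µM (-0.17 to -0.15, adjusted p 0.0527 to 0.0888; over all alternatives 6.84e-05 to 0.124). MED4 and MED21 passed at neither dose.

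MED1, the subunit that nuclear receptors bind, had normalized counts of 5542, 5731 and 6388 in DMSO, 6232, 6561 and 6464 at 0.5 µM and 5983, 6508 and 6480.4 at 1.5 µM. Its groups overlapped and it did not pass (log2 0.13 ± 0.054, adjusted p = 0.0582, and 0.10 ± 0.054, adjusted p = 0.106). Without DMSO replicate 3, the highest DMSO library, it passed at both doses (log2 0.19, adjusted p = 0.00590, and 0.17, adjusted p = 0.0103), and at 1.5 µM also without 1.5 µM replicate 1 (0.14, adjusted p = 0.0496). With a replicate block in the limma fit it also passed at both doses (log2 0.13, adjusted p = 0.0212, and 0.10, adjusted p = 0.0440). The adjusted p over all alternatives ran over 0.00590 to 0.270 at 0.5 µM and 0.0103 to 0.601 at 1.5 µM.

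The scaffold and tail held the largest fall in Mediator. MED24, a tail subunit, had normalized counts of 7622, 7599 and 7795 in DMSO, 4778, 5035 and 4982 at 0.5 µM and 3909.9, 3737 and 3763 at 1.5 µM. Each dose group lay wholly below the one before. MED24 fell by 0.64 on the log2 scale at 0.5 µM (SE 0.033, adjusted p = 5.10e-08) and fell by 1.01 at 1.5 µM (SE 0.033, adjusted p = 1.35e-09), or 2.02-fold. MED23, its neighbour in the tail, went the other way, with normalized counts of 1974, 2099 and 2063 in DMSO, 2907, 3229 and 3105 at 0.5 µM and 3216, 3449 and 3322 at 1.5 µM and log2 fold changes of 0.59 ± 0.047 (adjusted p = 1.26e-06) and 0.70 ± 0.047 (adjusted p = 2.34e-07). MED14, the backbone that joins the modules, had 9472, 9949 and 10824 in DMSO, 12156, 12541 and 12430.0 at 0.5 µM and 12669.7, 13382 and 12844 at 1.5 µM. It rose by 0.30 ± 0.046 log2 units at 0.5 µM (adjusted p = 1.81e-04) and 0.36 ± 0.046 at 1.5 µM (adjusted p = 3.31e-05), with no overlap with DMSO. MED15 and MED29 rose and MED16 and MED25 fell at both doses, and MED27 passed at 1.5 µM only. Thus 4 of these 8 genes were higher and 4 lower at 1.5 µM, against 36.9% and 36.2% of all genes.

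The kinase module, which docks on Mediator reversibly and carries CDK8 or its paralogue CDK19, held paralogues that moved unequally. CDK19 had normalized counts of 2145, 2173 and 2264 in DMSO, 3807, 3536 and 3836 at 0.5 µM and 3903, 4077 and 4011 at 1.5 µM. Every JQ1 library was above every DMSO library, and CDK19 rose 1.70-fold at 0.5 µM (log2 0.76 ± 0.041, adjusted p = 6.82e-08) and 1.82-fold at 1.5 µM (log2 0.87 ± 0.041, adjusted p = 1.71e-08). CDK8 had 5852, 5766 and 5948 in DMSO, 6375, 6551 and 6583 at 0.5 µM and 6518, 6552 and 6837 at 1.5 µM, a smaller rise without overlap (log2 0.15 ± 0.031, adjusted p = 0.00134, and 0.18 ± 0.031, adjusted p = 3.55e-04). In FPKM CDK8 did not pass (log2 0.098, adjusted p = 0.163, and 0.082, adjusted p = 0.234, with 3.15e-05 to 0.163 and 4.33e-07 to 0.234 over all alternatives).

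MED12, the subunit that activates CDK8, had normalized counts of 4069.9, 4489 and 4786 in DMSO, 2909, 2694 and 3165 at 0.5 µM and 2566, 2786 and 2616 at 1.5 µM. All JQ1 libraries lay below all DMSO libraries, and MED12 fell (log2 -0.61 ± 0.070, adjusted p = 2.11e-05, and -0.74 ± 0.070, adjusted p = 3.46e-06). Its paralogue MED12L had -0.0024 ± 0.079 and 0.16 ± 0.079 and did not pass at either dose. MED13L, a paralogue of the linker MED13, rose (log2 0.38 ± 0.068, adjusted p = 5.24e-04, and 0.60 ± 0.068, adjusted p = 1.52e-05), whereas MED13 had 0.071 ± 0.068 and 0.16 ± 0.068 and did not pass. Cyclin C (CCNC), the partner of both kinases, did not pass either.

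The ratio of paralogues per length was taken in each library as a description, without a test. CDK19 over CDK8 was 0.206 ± 0.0114 in DMSO, 0.294 ± 0.0204 at 0.5 µM and 0.316 ± 0.0174 at 1.5 µM (FPKM ratio, mean ± SD, n = 3). MED12L over MED12 was 0.657 ± 0.0415 in DMSO, 0.965 ± 0.0722 at 0.5 µM and 1.18 ± 0.114 at 1.5 µM. MED12L was thus below MED12 in each DMSO library and above it in each 1.5 µM library. MED13L over MED13 was 0.510 ± 0.0491 in DMSO, 0.610 ± 0.0321 at 0.5 µM and 0.676 ± 0.0429 at 1.5 µM. In these 3 pairs the JQ1 libraries lay above all DMSO libraries at both doses.

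**Figure D3:**
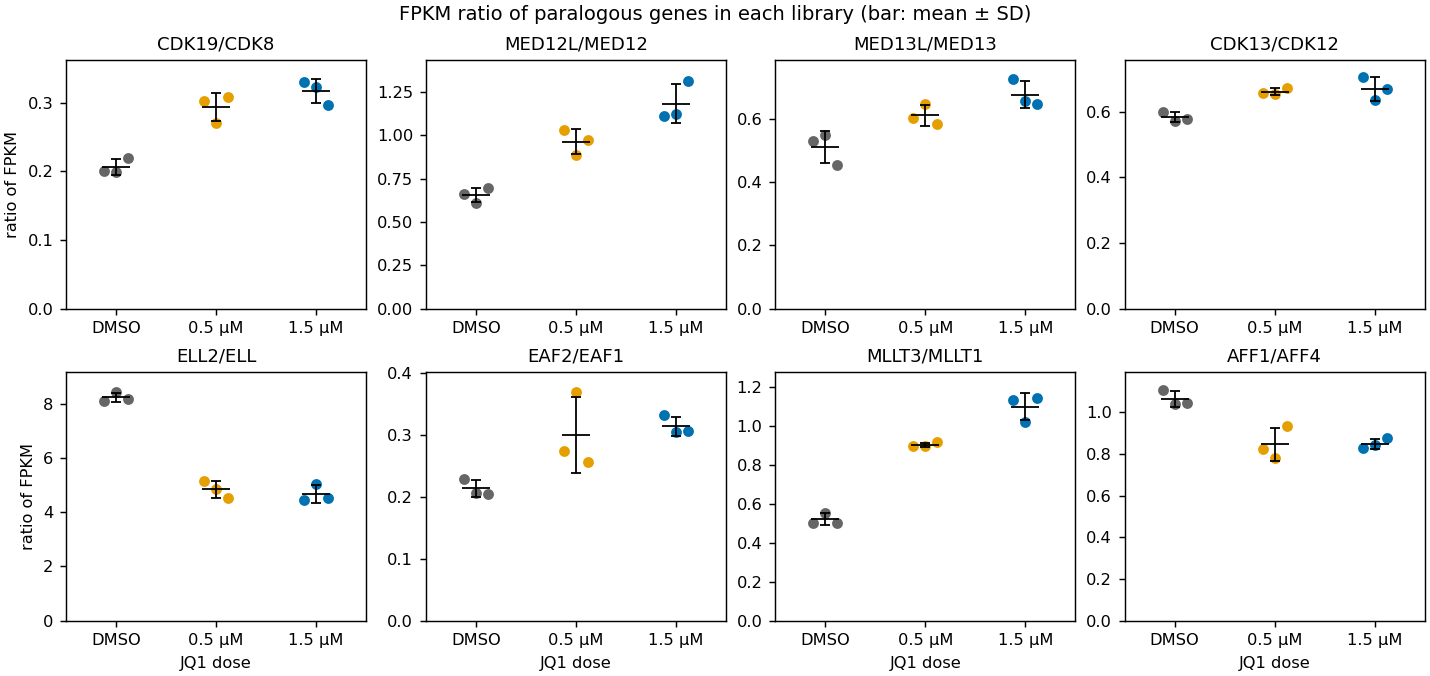
FPKM ratio of 8 pairs of paralogous members in each library (points) with mean ± SD (bars), in DMSO (grey), 0.5 µM (orange) and 1.5 µM JQ1 (blue). The ratio was higher under JQ1 in 6 pairs and lower for ELL2 over ELL and for AFF1 over AFF4.

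The general kinase of TFIIH, which phosphorylates the C-terminal domain at the start of genes, changed little. CDK7 had normalized counts of 1106, 1061 and 959 in DMSO, 901, 1141 and 844 at 0.5 µM and 856, 886 and 821 at 1.5 µM, where 0.5 µM replicate 2 exceeded every other library. CDK7 did not pass at 0.5 µM (log2 -0.13 ± 0.10, adjusted p = 0.291) unless that library was left out (-0.25, adjusted p = 0.00368, with 0.00368 to 0.787 over all alternatives). It passed as lower at 1.5 µM (log2 -0.29 ± 0.10, adjusted p = 0.0268), but not without DMSO replicate 1 or 2 or 1.5 µM replicate 1 or 3 (log2 -0.29 to -0.24, adjusted p 0.0607 to 0.0944; over all alternatives 6.70e-04 to 0.0944). Its cyclin CCNH did not pass, and the assembly factor MNAT1 passed at 0.5 µM only (log2 0.24 ± 0.087, adjusted p = 0.0330), a call lost without any 1 of the DMSO libraries (0.23 to 0.24, adjusted p 0.0668 to 0.0847; over all alternatives 0.00788 to 0.0850).

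CDK12, CDK13 and their shared cyclin CCNK, which act on the elongating polymerase, all passed as higher at both doses. So did 35.3% of all genes at 0.5 µM and 36.9% at 1.5 µM. CDK13 had normalized counts of 3929, 4005 and 4188 in DMSO, 5027, 5272 and 5115 at 0.5 µM and 5385, 5533 and 5589.9 at 1.5 µM. It stood clear of DMSO in each JQ1 library and rose (log2 0.35 ± 0.035, adjusted p = 7.68e-06, and 0.45 ± 0.035, adjusted p = 8.28e-07). CDK12 had 6547, 6900.2 and 7453 in DMSO, 7428, 7458 and 7684 at 0.5 µM and 7735, 8236 and 7993 at 1.5 µM, overlapping between 0.5 µM and DMSO (log2 0.11 ± 0.046, adjusted p = 0.0498) but not between 1.5 µM and DMSO (0.20 ± 0.046, adjusted p = 0.00267). With FPKM the 1.5 µM call was lost (0.15, adjusted p = 0.0542; over all alternatives 1.98e-04 to 0.0542). The call of CDK12 at 0.5 µM was lost without any 1 library other than DMSO replicate 3 and 0.5 µM replicate 2 (log2 0.069 to 0.12, adjusted p 0.0573 to 0.195; over all alternatives 0.00609 to 0.254). CCNK rose by 0.14 ± 0.043 at 1.5 µM (adjusted p = 0.0141), a call lost without DMSO replicate 1 (0.12, adjusted p = 0.0526) or 1.5 µM replicate 3 (0.12, adjusted p = 0.0587), and at 0.5 µM without DMSO replicate 1 or 3 (0.12 each, adjusted p 0.0629 and 0.0578). Over all alternatives the adjusted p of CCNK ran over 0.00179 to 0.299 at 1.5 µM and 0.00878 to 0.257 at 0.5 µM.

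Of the pausing factor NELF, the subunits that passed were lower. NELFCD, the NELF-C/D subunit, had normalized counts of 15220.0, 15380.4 and 15466 in DMSO, 10537, 11367 and 10717 at 0.5 µM and 9075, 9092 and 9184 at 1.5 µM, and NELFA had 4949, 4797 and 4879 in DMSO, 3965, 4198 and 3734 at 0.5 µM and 3502, 3397 and 3270.5 at 1.5 µM. In both genes each dose group lay wholly below the group before it. NELFCD fell by 0.50 on the log2 scale at 0.5 µM (SE 0.032, adjusted p = 2.40e-07) and fell by 0.75 at 1.5 µM (SE 0.032, adjusted p = 7.64e-09). NELFA fell by 0.30 (SE 0.045, adjusted p = 1.59e-04) and fell by 0.52 (SE 0.045, adjusted p = 1.70e-06).

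NELFE, the RNA-binding subunit, had normalized counts of 5406, 5349 and 5354 in DMSO, 5166, 5549 and 4998 at 0.5 µM and 4703, 4642 and 4744 at 1.5 µM. Its groups overlapped at 0.5 µM, where it did not pass (log2 -0.037 ± 0.039, adjusted p = 0.406), and were separate at 1.5 µM (log2 -0.19 ± 0.039, adjusted p = 9.95e-04). Without 0.5 µM replicate 2, the highest library, NELFE passed at 0.5 µM too (-0.080, adjusted p = 0.0183), as it did under upper-quartile scaling (-0.091, adjusted p = 0.0376, with 0.0183 to 0.939 over all alternatives). NELFB, with log2 0.034 ± 0.035 and 0.068 ± 0.035, passed at neither dose. Thus 2 of 4 NELF genes fell at 0.5 µM and 3 of 4 at 1.5 µM, and none rose. The shares over all genes were 34.7% lower and 35.3% higher at 0.5 µM, and 36.2% and 36.9% at 1.5 µM.

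DSIF, the partner of NELF at the pause, had small fold changes. SUPT5H, its large subunit, which stays with the polymerase during elongation, had normalized counts of 16341, 16306 and 16339 in DMSO, 16555, 16110.2 and 17141 at 0.5 µM and 17057, 16974 and 17308 at 1.5 µM. It did not pass at 0.5 µM (log2 0.023 ± 0.029, adjusted p = 0.484, and -0.030 under upper-quartile scaling) or at 1.5 µM (log2 0.068 ± 0.029, adjusted p = 0.0555), where the groups did not overlap. It passed as higher at 1.5 µM without 0.5 µM replicate 2 (0.068, adjusted p = 0.00922) or replicate 3 (0.068, adjusted p = 0.0362), with DESeq2 (0.068, adjusted p = 0.0346), with FPKM (0.093, adjusted p = 0.0400) and with only the 6 libraries compared (0.068, adjusted p = 0.00747), over a range of 0.00747 to 0.656 for all alternatives. SUPT4H1, the small subunit, had 3204, 3069.8 and 3069.9 in DMSO, 2952, 3214 and 2929 at 0.5 µM and 2882, 2851 and 2892 at 1.5 µM and passed as lower at 1.5 µM only (log2 -0.12 ± 0.041, adjusted p = 0.0279), a call lost without DMSO replicate 1 or any 1 of the 1.5 µM libraries (-0.12 to -0.095, adjusted p 0.0583 to 0.0997; over all alternatives 0.00242 to 0.217).

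The super elongation complex and its relatives held the widest spread of all complexes, with log2 fold changes of -2.74 to 1.05 at 1.5 µM. Its AFF scaffolds moved in opposite directions. AFF3, the scaffold of a related complex, had normalized counts of 4112, 4201 and 4351 in DMSO, 915, 812 and 869 at 0.5 µM and 635, 594 and 662 at 1.5 µM. Every JQ1 library lay far below every DMSO library, and the dose groups were separate too. AFF3 was 4.88-fold lower at 0.5 µM (log2 -2.29 ± 0.057, adjusted p = 1.01e-09) and 6.70-fold lower at 1.5 µM (log2 -2.74 ± 0.057, adjusted p = 1.38e-10). Its level was 9.41, 1.88 and 1.35 FPKM in DMSO, at 0.5 µM and at 1.5 µM.

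AFF4, the scaffold of the main complex, had normalized counts of 7033, 7721 and 8239.7 in DMSO, 10659, 9926 and 10962 at 0.5 µM and 11154, 11979 and 11837 at 1.5 µM. It rose, with no overlap between JQ1 and DMSO (log2 0.46 ± 0.059, adjusted p = 4.55e-05, and 0.61 ± 0.059, adjusted p = 4.12e-06). AFF1 rose by less, with log2 0.24 ± 0.054 at 1.5 µM (adjusted p = 0.00210). AFF1 over AFF4 in FPKM was 1.06 ± 0.0368 in DMSO, 0.846 ± 0.0788 at 0.5 µM and 0.849 ± 0.0241 at 1.5 µM.

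The ELL and YEATS-domain members also parted within each pair. ELL2, an elongation factor of the complex, had normalized counts of 11773, 11811 and 11708 in DMSO, 7121, 7098 and 6757 at 0.5 µM and 6329, 6546 and 6599 at 1.5 µM. All JQ1 libraries were below all DMSO libraries, and ELL2 fell (log2 -0.75 ± 0.031, adjusted p = 1.20e-08, and -0.86 ± 0.031, adjusted p = 2.69e-09). ELL had 0.052 ± 0.049 and 0.048 ± 0.049 and did not pass, and ELL2 over ELL in FPKM was 8.23 ± 0.168 in DMSO, 4.85 ± 0.315 at 0.5 µM and 4.66 ± 0.332 at 1.5 µM. MLLT3 (AF9), a reader of acylated histones, had normalized counts of 2043, 2192 and 2151 in DMSO, 3985, 4184 and 3871 at 0.5 µM and 4388, 4326 and 4531 at 1.5 µM. MLLT3 rose 1.88-fold at 0.5 µM (log2 0.91 ± 0.041, adjusted p = 2.09e-08) and 2.07-fold at 1.5 µM (log2 1.05 ± 0.041, adjusted p = 4.47e-09). Its paralogue MLLT1 (ENL) fell at 1.5 µM (log2 -0.16 ± 0.036, adjusted p = 0.00223), and MLLT3 over MLLT1 in FPKM was 0.520 ± 0.0309 in DMSO, 0.903 ± 0.0121 at 0.5 µM and 1.10 ± 0.0685 at 1.5 µM. The ELL-binding factors also differed: EAF1 fell at both doses (log2 -0.24 and -0.23), and EAF2 passed as higher at 1.5 µM (log2 0.34). ELL3, a further ELL paralogue, rose at both doses (log2 0.44 and 0.30), but with FPKM it passed at neither (0.24, adjusted p = 0.109, and 0.16, adjusted p = 0.271; over all alternatives 3.73e-06 to 0.109 and 0.00104 to 0.271).

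**Figure D4:**
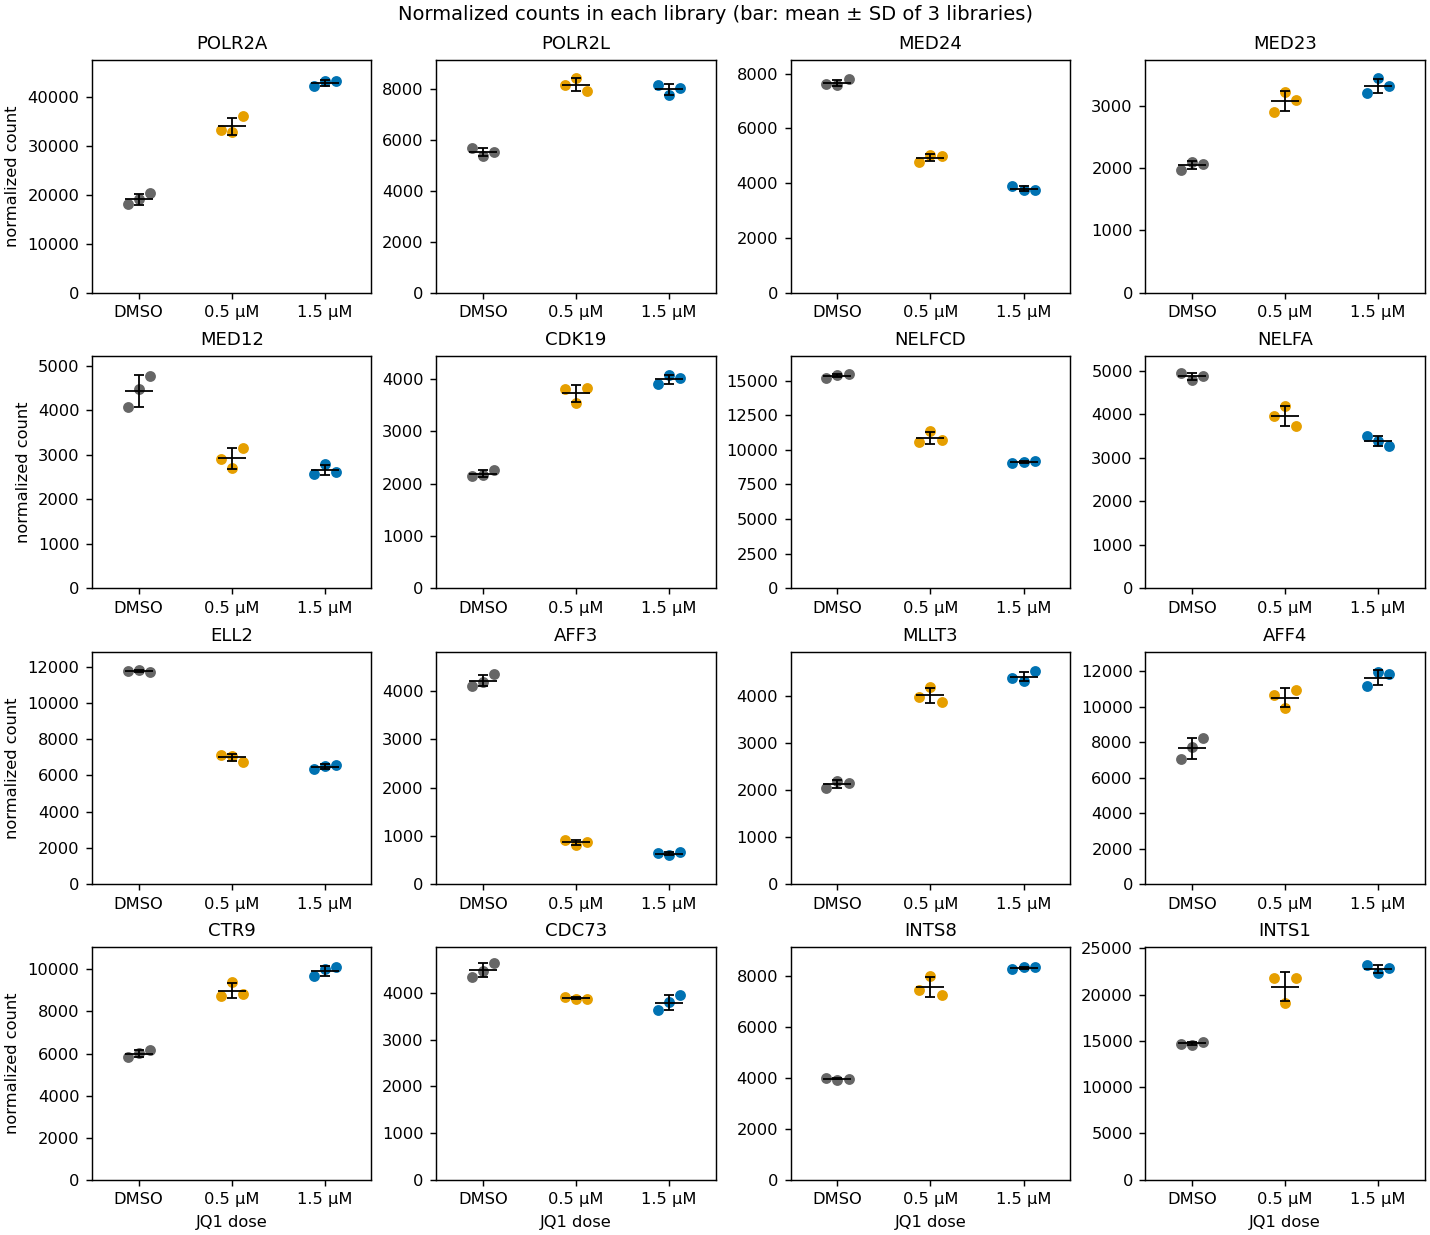
Normalized count of 16 members in each library (points), with mean ± SD of the 3 libraries (bars), in DMSO (grey), 0.5 µM (orange) and 1.5 µM JQ1 (blue), on linear axes from 0. AFF3 dropped to a small part of its DMSO level, POLR2A, MED24, NELFCD and NELFA stepped with dose without overlap, and INTS8 and MLLT3 about doubled.

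In the PAF1 complex, which travels with elongating Pol II, the members did not move together. CTR9, its scaffold, had normalized counts of 5816, 6027 and 6146 in DMSO, 8733, 9416 and 8841 at 0.5 µM and 9670.0, 10039 and 10121 at 1.5 µM, with the groups in dose order and no overlap. CTR9 rose (log2 0.58 ± 0.038, adjusted p = 2.47e-07, and 0.73 ± 0.038, adjusted p = 3.20e-08). LEO1 had 2290.4, 2361 and 2176 in DMSO, 1847, 2125 and 1762 at 0.5 µM and 1835, 1758 and 1813 at 1.5 µM, and fell (log2 -0.26 ± 0.065, adjusted p = 0.00489, and -0.34 ± 0.065, adjusted p = 7.70e-04). CDC73 fell as well, with log2 -0.21 ± 0.039 and -0.24 ± 0.039 (adjusted p = 7.34e-04 and 2.00e-04).

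PAF1 itself had normalized counts of 7317, 7130.3 and 7122 in DMSO, 7129.6, 8428 and 7078 at 0.5 µM and 7000.2, 6706 and 6986 at 1.5 µM, where 0.5 µM replicate 2 was far above the other 8 libraries. It passed at neither dose (log2 0.065 ± 0.059, adjusted p = 0.347, and -0.060 ± 0.059, adjusted p = 0.380). Without that library the log2 fold change was -0.017 at 0.5 µM (adjusted p = 0.590), and PAF1 passed as lower at 1.5 µM (-0.060, adjusted p = 0.0419). Over all alternatives the adjusted p of PAF1 ran over 0.139 to 0.871 at 0.5 µM and 0.0419 to 0.713 at 1.5 µM.

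Of the histone chaperones, SUPT6H (SPT6), which binds the elongating polymerase, had normalized counts of 15612, 16011 and 16249.9 in DMSO, 19260.0, 19378 and 20059 at 0.5 µM and 20837, 21404 and 21351 at 1.5 µM. Its groups were separate and in dose order, and it rose (log2 0.29 ± 0.029, adjusted p = 6.20e-06, and 0.41 ± 0.029, adjusted p = 3.50e-07). SUPT16H, a FACT subunit, had log2 0.059 ± 0.032 and 0.065 ± 0.032 and did not pass. The SUPT symbols also cover subunits of the coactivator SAGA, of which SUPT3H did not pass. SUPT20H had normalized counts of 3431, 3623 and 3624 in DMSO, 3969, 4922 and 4035 at 0.5 µM and 4193, 4247 and 4365 at 1.5 µM, above DMSO in each JQ1 library, with log2 0.27 ± 0.071 (adjusted p = 0.00626) and 0.26 ± 0.071 (adjusted p = 0.00666). In FPKM SUPT20H did not pass (adjusted p = 0.0993 and 0.143; over all alternatives 5.79e-04 to 0.0993 at 0.5 µM and 4.89e-06 to 0.143 at 1.5 µM).

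SUPT7L, another SAGA subunit, had 3434, 3590.1 and 3574 in DMSO, 3027, 3443 and 2847 at 0.5 µM and 2851, 2995 and 2892 at 1.5 µM. It overlapped DMSO at 0.5 µM, where the 0.5 µM replicate 2 library was highest of its group (log2 -0.19 ± 0.061, adjusted p = 0.0173), and was separate from DMSO at 1.5 µM (-0.28 ± 0.061, adjusted p = 0.00182). Without DMSO replicate 2 or 3 or 0.5 µM replicate 1 or 3 its 0.5 µM call was lost (-0.18 to -0.13, adjusted p 0.0512 to 0.0606; over all alternatives 4.17e-05 to 0.114).

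Integrator, which cleaves nascent RNA of snRNA genes and of paused polymerases, had 7 of 11 members higher and 2 lower at each dose, against 35.3% higher and 34.7% lower of all genes at 0.5 µM and 36.9% and 36.2% at 1.5 µM, with medians of 0.30 and 0.32 on the log2 scale. INTS8 had normalized counts of 3983, 3929 and 3964 in DMSO, 7429, 7980.0 and 7226 at 0.5 µM and 8273, 8351 and 8324 at 1.5 µM. Its 3 groups did not overlap, and INTS8 rose 1.90-fold at 0.5 µM (log2 0.93 ± 0.037, adjusted p = 9.42e-09) and 2.10-fold at 1.5 µM (log2 1.07 ± 0.037, adjusted p = 2.00e-09). In FPKM its level was 22.7, 46.2 and 46.4 in DMSO, at 0.5 µM and at 1.5 µM. With FPKM the limma log2 fold change between the doses was 0.011 (adjusted p = 0.955, with 5.69e-04 to 0.955 over all alternatives). INTS1, the largest subunit, had 14702, 14589.6 and 14873 in DMSO, 21821, 19047 and 21753 at 0.5 µM and 23169.5, 22299 and 22831 at 1.5 µM, all JQ1 libraries above DMSO (log2 0.50 ± 0.048, adjusted p = 5.13e-06, and 0.63 ± 0.048, adjusted p = 6.59e-07). INTS2, INTS5, INTS6, INTS7 and INTS12 also passed as higher at both doses, with log2 fold changes of 0.23 to 0.56 at 1.5 µM, INTS3 and INTS4 passed as lower, and INTS9 and INTS10 passed at neither dose. The 0.5 µM call of INTS6 was lost without any 1 library other than DMSO replicate 3 and 0.5 µM replicate 1 (log2 0.099 to 0.15, adjusted p 0.0614 to 0.165; over all alternatives 0.00796 to 0.731), and that of INTS12 without DMSO replicate 3 (0.27, adjusted p = 0.0619; over all alternatives 0.00351 to 0.0619). Without the 3 libraries high in H19 and SLC2A3 the 0.5 µM call of INTS5 was lost (0.24, adjusted p = 0.0578; over all alternatives 4.43e-07 to 0.0578). INTS4 was lost without DMSO replicate 2 or 3 at both doses, without 0.5 µM replicate 1 at 0.5 µM, and without 1.5 µM replicate 1 or 2 at 1.5 µM (-0.098 to -0.072, adjusted p 0.0521 to 0.116; over all alternatives 0.00264 to 0.0988 and 0.00360 to 0.372).

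Of the 3 noncoding or copy members only INTS6-AS1 passed. This antisense RNA beside INTS6 had normalized counts of 59.8, 42.8 and 50.8 in DMSO, 146, 164 and 137 at 0.5 µM and 189, 199.7 and 201 at 1.5 µM, low but separate between JQ1 and DMSO. Its log2 fold change was 1.54 ± 0.14 at 0.5 µM (adjusted p = 3.42e-06) and 1.93 ± 0.14 at 1.5 µM (adjusted p = 4.26e-07). The libraries were stranded, but no source used here says whether the counting used the strand. In a later annotation (GENCODE 29) 52 of 91 members overlap an exon of another gene. Among them, on the opposite strand, are MED12L (3579 bases with IGSF10), MED28 (3320 with FAM184B), CCNK (2284 with CCDC85C) and INTS8 (1628 with CCNE2). Others on the opposite strand are MED25 (1438 with PTOV1-AS1), MED31 (1227 with TXNDC17), SUPT7L (697 with GPN1) and INTS6-AS1 (204 with INTS6). Reads of such pairs may not be told apart.

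Few members differed between the doses. Between 1.5 µM and 0.5 µM 13 of 91 members passed, 6 higher and 7 lower, near the background of 12.7% (4.66% higher, 8.09% lower). POLR2A, AFF2, INTS2, INTS8, CTR9 and SUPT6H were higher at 1.5 µM, and AFF3, MED24, NELFCD, NELFA, NELFE, MED25 and ELL2 were lower. None moved 2-fold. The largest were AFF3 (log2 -0.46 ± 0.057, adjusted p = 0.00111), MED24 (-0.37 ± 0.033, adjusted p = 2.38e-04), POLR2A (0.34 ± 0.048, adjusted p = 0.00211) and NELFCD (-0.25 ± 0.032, adjusted p = 0.00118). The dose groups were fully separate for 38 of the 91 members, a larger share than the 33.7% of all genes. AFF2 was unlike the rest: its log2 fold change against DMSO was -0.13 ± 0.051 at 0.5 µM (adjusted p = 0.0441) and 0.098 ± 0.051 at 1.5 µM (adjusted p = 0.109), and between the doses it was 0.23 ± 0.051 (adjusted p = 0.0191). Its call at 0.5 µM was lost without any 1 library other than DMSO replicate 1 and 0.5 µM replicate 3 (log2 -0.14 to -0.088, adjusted p 0.0604 to 0.167; over all alternatives 0.00814 to 0.233).

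These dose calls rest on single libraries more than the others. Leaving out 1 library gave 4 to 19 calls, 1 to 12 higher and 3 to 8 lower: 19 without 0.5 µM replicate 2, 4 without 1.5 µM replicate 3, 5 without 1.5 µM replicate 2 or 0.5 µM replicate 1, and 6 without 1.5 µM replicate 1 or DMSO replicate 2. Without the 3 libraries high in H19 and SLC2A3 no member passed, in a fit with 1 library left at 1.5 µM, which is assumed to vary like the other groups. There the log2 fold changes were still -0.38 for AFF3, -0.38 for MED24, 0.39 for POLR2A and -0.25 for NELFCD (adjusted p = 0.138, 0.0560, 0.0950 and 0.145). Without 1.5 µM replicate 3 NELFA was lost (-0.20, adjusted p = 0.0563), and the calls of AFF2, INTS2, INTS8, CTR9, SUPT6H, NELFE, MED25 and ELL2 were each lost without 2 or more single libraries, while AFF3, MED24, POLR2A and NELFCD passed whichever 1 library was left out.

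The dose difference went with length across members. Over the 88 coding members the Spearman correlation of the log2 fold change between the doses with the gene length used in the FPKM values was 0.56, against 0.12 over 14638 genes, while it was 0.080 at 0.5 µM and 0.23 at 1.5 µM against DMSO. Single libraries differed from the others of their group with length in the same members: the correlation was -0.61 for 0.5 µM replicate 2, 0.67 for 0.5 µM replicate 3, -0.50 for 1.5 µM replicate 1, -0.68 for DMSO replicate 1 and 0.69 for DMSO replicate 3. For 0.5 µM replicate 1, 1.5 µM replicate 2, 1.5 µM replicate 3 and DMSO replicate 2 it was 0.31, 0.47, 0.088 and -0.093. Over the 14638 genes these were -0.16, 0.19, -0.25, -0.47, 0.46, 0.038, 0.19, 0.079 and -0.0047 in the same order. The dose correlation of the members was 0.34 without 0.5 µM replicate 2, 0.64 without the 3 libraries high in H19 and SLC2A3 and 0.57 with FPKM values. Genes are not independent replicates and all points share the same libraries, so no p is given, and the part of length in the dose calls was not tested.

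**Figure D5:**
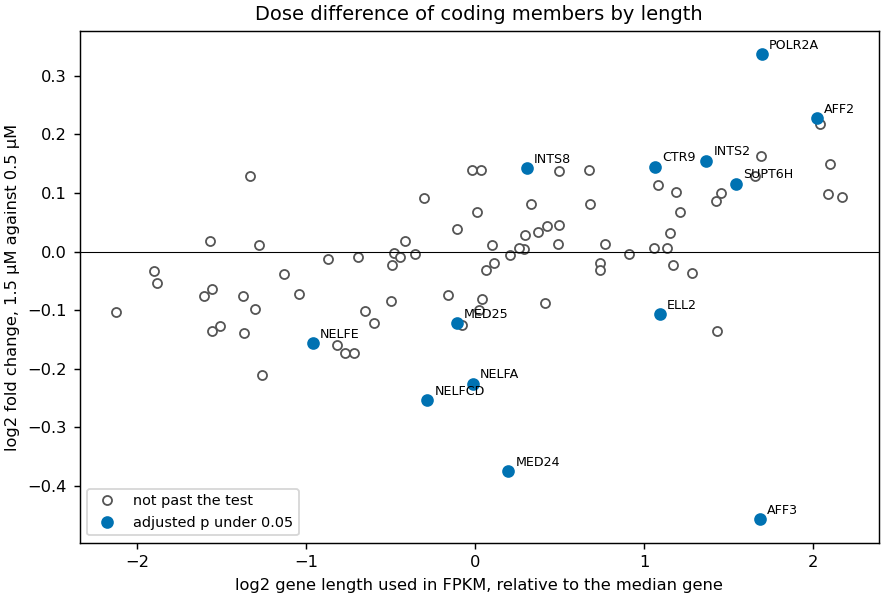
Log2 fold change of the 88 coding members between 1.5 µM and 0.5 µM JQ1 against the log2 gene length used in the FPKM values, relative to the median gene, with the 13 members past the test filled and named. Longer members tend to lie higher (Spearman 0.56), and AFF3 and MED24 lie far below the members of like length.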

How the data were processed

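Total RNA of 9 libraries was measured, 3 per group, which the labels call biological replicates; if they were not separate cultures, p-values measure only technical spread. Per the submitters' processing notes, reads went through cutadapt, STAR and RSEM on hg19; their versions, settings, annotation and use of the strand are not stated in the sources used here. Each main value is a normalized count that the authors deposited (unit signal): reads of a gene over a DESeq2 size factor, per the file headers. Undoing that factor gave whole reads, to within 0.001, for 100% of values. The authors also deposited FPKM values, used for levels, paralogue ratios and as an alternative.

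Values were tested as log2(normalized count + 1) with limma 3.58.1 (R 4.3.3), fitting the 9 libraries together with a variance trend and without a replicate block, over 17514 genes with at least 10 normalized counts in at least 3 libraries (4 left out). Tests were two-sided with Benjamini-Hochberg adjustment over all genes of a comparison and a threshold of 0.05. Fold changes of low genes are understated on this scale. Alternatives were pseudocounts of 0.1 and 5, no filter and a minimum of 50, FPKM (pseudocount 0.1), TMM and upper-quartile scaling, no trend, count tests of the recovered reads (edgeR 4.0.16, DESeq2 1.42.0), only the 6 libraries compared, a replicate block, each library left out, and the 3 libraries high in H19 and SLC2A3 left out. The limma fit, and no other step, was tested on simulated counts, in which a far smaller share of genes changed than was called here.

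Values per library are given for members set by role, for up to 2 members per complex with the largest change at 1.5 µM (mean of at least 20 normalized counts), and for up to 4 members with the largest change between doses. Members and lists were chosen with earlier results of these data known. INTS11, INTS13, INTS14 and INTS15 stand under older symbols and so are not members. A further 24 rows that the symbol rule matches, mostly pseudogenes, appear only among the FPKM values, at or under 1.97 FPKM.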

Additional observations from a re-analysis of the deposited data

How the results depend on the processing

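Against DMSO the number of members called stayed within 1.5 times of 59 at 0.5 µM and 63 at 1.5 µM under every alternative; leaving out 1 library gave 52 to 64 (30 to 38 higher, 20 to 29 lower) and 59 to 78 (34 to 46 higher, 25 to 32 lower). Without the 3 libraries high in H19 and SLC2A3 the counts were 53 and 51. Between the doses the 13 calls (6 higher, 7 lower) moved to 5 (1 and 4) with FPKM, 6 (2 and 4) without the trend, 7 (3 and 4) with only the 6 libraries compared, 0 (0 and 0) without those 3 libraries, and 4 to 19 (1 to 12 higher, 3 to 8 lower) without 1 library; none of the 13 calls held under every alternative, and the cause was not tested. On the recovered reads edgeR called 60, 65 and 12 members and DESeq2 58, 69 and 16. With the replicate block 62, 68 and 12 members were called at 0.5 µM, at 1.5 µM and between the doses, and MED1 passed at both doses (0.1271, adjusted p = 0.0212, and 0.1048, adjusted p = 0.0440). Deviations of same-numbered libraries correlated by -0.385 to 0.131, and those of differently numbered libraries by -0.145 to 0.253. With 3 libraries per group that differ in other ways, this cannot tell whether the numbers mark shared cultures or days. Signs were followed only for members called in a comparison or set by role, not for the rest. Among those followed, signs turned only for genes called at neither setting. At 0.5 µM they were PAF1 without 0.5 µM replicate 2 (-0.0173, and -0.0173 to 0.1087 with 1 library left out) and SUPT5H with upper-quartile scaling (-0.0304). Between the doses they were CDK8 (-0.0163) and MED14 (-0.0281) with FPKM. MED1 also turned there without 1.5 µM replicate 1 (0.0171, and -0.0436 to 0.0171 with 1 library left out) and without the 3 libraries (0.0193). Upper-quartile scaling shifted the median of all genes by -0.054 and -0.051 log2 units at the lower and the higher dose.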

Other observations

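Genes around the members were counted from lists chosen for their role in transcription. Of 15 general transcription factors 9 were higher and 3 lower at each dose, and of 15 TFIID subunits (TAFs) 9 were higher and 2 lower at 0.5 µM and 10 higher and 2 lower at 1.5 µM (background 35.3% higher and 34.7% lower at 0.5 µM, 36.9% and 36.2% at 1.5 µM). TAF12, a histone-fold subunit of TFIID and SAGA, had normalized counts of 1026 ± 60.5 in DMSO, 1754 ± 273 at 0.5 µM and 1759 ± 81.7 at 1.5 µM (SD, n = 3), a log2 fold change of 0.78 ± 0.095, adjusted p = 2.67e-05 (limma) at 1.5 µM. Of 7 genes of P-TEFb and its 7SK inhibitor complex 1 fell at each dose, while 4 rose at 0.5 µM and 5 at 1.5 µM. The inhibitor paralogues went opposite ways: HEXIM1 had 1125 ± 21.7 in DMSO, 5487 ± 75.2 at 0.5 µM and 6976 ± 144 at 1.5 µM (log2 2.63 ± 0.032, adjusted p = 1.26e-11 at 1.5 µM), and HEXIM2 had 213 ± 2.13 in DMSO, 154 ± 16.1 at 0.5 µM and 108 ± 10.6 at 1.5 µM (log2 -0.98 ± 0.11, adjusted p = 1.72e-05).

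Of 13 other elongation factors 6 rose and 4 fell at each dose. The background for this and the next lists was 35.3% higher and 34.7% lower at 0.5 µM, and 36.9% and 36.2% at 1.5 µM. RTF1, which works with the PAF1 complex, had 4390.2 ± 105 in DMSO, 7610.4 ± 491 at 0.5 µM and 8235 ± 228 at 1.5 µM (log2 0.91 ± 0.046, adjusted p = 2.65e-08 at 1.5 µM), and TCEA3, a TFIIS paralogue that restarts backtracked polymerase, had 719 ± 16.1 in DMSO, 291 ± 17.4 at 0.5 µM and 202 ± 6.67 at 1.5 µM (log2 -1.83 ± 0.069, adjusted p = 3.45e-09). Among 6 Integrator subunits listed under other symbols, 2 fell at each dose, while 4 rose at 0.5 µM and 3 at 1.5 µM, with the single-stranded DNA binding paralogues apart: NABP1 had log2 1.33 ± 0.073, adjusted p = 5.13e-08, and NABP2 had log2 -0.87 ± 0.043, adjusted p = 2.19e-08 at 1.5 µM. Of 12 genes for phosphatases and binders of the C-terminal domain 4 rose at each dose, while 3 fell at 0.5 µM and 4 at 1.5 µM, CTDSP1 most (log2 -1.92 ± 0.079, adjusted p = 5.86e-09). Of 19 cleavage, polyadenylation and termination genes at 0.5 µM 7 were higher and 4 lower, at 1.5 µM 8 were higher and 7 lower, and XRN2, the exonuclease of termination, had log2 0.56 ± 0.031, adjusted p = 6.23e-08.

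The other polymerases stood on the lower side. Of 11 listed Pol I subunits 8 had values, of which 7 fell at 0.5 µM and 8 at 1.5 µM, and none rose. Among all genes 34.7% were lower and 35.3% higher at 0.5 µM, and 36.2% and 36.9% at 1.5 µM. Median log2 fold changes were -0.39 and -0.44 for Pol I and -0.034 for Pol II subunits at both doses. Those over all genes were -0.010 and -0.0030. CD3EAP, a Pol I subunit, had 3888 ± 92.1 in DMSO, 2106 ± 186 at 0.5 µM and 1811 ± 22.0 at 1.5 µM (log2 -1.10 ± 0.056, adjusted p = 2.80e-08 at 1.5 µM). Of 11 Pol III subunits 3 rose at each dose, while 6 fell at 0.5 µM and 7 at 1.5 µM (median -0.21 at both). POLR3G, a Pol III subunit with a paralogue, POLR3GL, had 937 ± 25.8 in DMSO, 413 ± 65.6 at 0.5 µM and 367 ± 29.5 at 1.5 µM (log2 -1.35 ± 0.10, adjusted p = 6.70e-07 at 1.5 µM). These lists were chosen with results of the same data known, and no list was tested against other genes.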
